A study of Mus musculus with 72 samples.

Results

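The measurements described here are the RNA levels of 10 genes that mark or govern blood vessels: Vegfa, Vegfb, Angpt1, Angpt2, Kdr, Flt1, Tek, Pecam1, Cdh5 and Vwf. They were picked by name, and each matched 1 row of a count table of 55416 Ensembl genes in epididymal white adipose tissue (eWAT), liver and pituitary of adult male mice of the sighted FVB strain (FVB.129P2). Vascular endothelial growth factors are secreted by many cell types and act through receptor tyrosine kinases on endothelial cells, the cells that line vessels. The angiopoietins are ligands of a second endothelial receptor, TIE2: angiopoietin-1 activates it and steadies vessels, whereas angiopoietin-2 is released by endothelial cells and can block or activate it. In adipose tissue the capillary bed grows and is remodelled as fat depots expand, and in the liver the endothelium forms open sinusoids.

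The mice were sons of dams fed ad libitum (FED) or of dams given 20% less food (CR20) from embryonic day 15 through lactation. Sons were weaned at postnatal day 21 and ate a 10% fat diet (CTRL) or a 45% fat diet (HFD) from 8 weeks of age, for 10 weeks in the mice sequenced, by the study's account of these libraries; the sample labels name both 10 and 16 weeks. Each of the 4 groups, FED-CTRL, FED-HFD, CR20-CTRL and CR20-HFD, held 6 mice, and each of the 24 mice gave all 3 tissues, so 72 libraries were compared. The labels do not tie mice to dams, so brothers may stand in 1 group, and they name no agent other than the diets. Mice are named below by the animal number in their labels. The tissue was taken whole, and in bulk RNA fewer endothelial cells and less RNA per cell cannot be told apart.

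Library totals ran from 9842813 to 27601208 counts, so that 3 counts, the smallest level treated as detected, corresponded to between 0.109 and 0.305 CPM (counts scaled to library size). The tissue labels were checked against marker lists. The summed level of 6 hepatocyte genes was 72300 to 118000 CPM in liver and at most 982 CPM in eWAT, that of 6 pituitary hormone genes was 232000 to 410000 CPM in pituitary, and that of 8 adipocyte genes was 5570 to 28400 CPM in eWAT and at most 308 CPM in pituitary. A few libraries stood apart within their group. The eWAT library of FED-HFD mouse 23 had a summed level of 12 macrophage genes of 10600 CPM, against at most 4340 CPM in the other 23, and the lowest adipocyte sum, 5570 CPM. Epididymis genes, which belong to the organ that adjoins this fat pad, summed to 133 CPM in CR20-CTRL mouse 4, 52.0 CPM in CR20-CTRL mouse 5 and 28.4 CPM in CR20-HFD mouse 6, with 7, 6 and 5 of the 8 genes at 0, and to at most 0.0495 CPM in the 20 eWAT libraries of mice numbered 10 and above. The liver of FED-HFD mouse 40 had the lowest sum of 28 endothelial genes, 156 CPM, against 213 to 316 CPM in the other 23 livers. The calls among the 10 genes that rest on these libraries are given with and without them. Values of single genes from the further lists are given with all libraries only.

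The start regions of 3 of the genes, Pecam1, Kdr and Tek, are shown. From mouse to mouse in eWAT their pairs had a Pearson r of 0.66 to 0.88, computed as described below. Other pairs of endothelial genes were closer, such as Pecam1 and Cdh5 (0.97). Each line gives the 250 bases before the start of the canonical transcript in GRCm39, read 5′ to 3′ on the strand of the gene. Capitals mark GGAAG or its reverse CTTCC, a longer form of the GGAA core bound by ETS factors, a family with well known roles in endothelial genes. The shorter GGAA or its reverse TTCC is not marked, and it also occurs outside the capitals in all 3 windows.
Tek (chr4:94627041-94627290, plus strand): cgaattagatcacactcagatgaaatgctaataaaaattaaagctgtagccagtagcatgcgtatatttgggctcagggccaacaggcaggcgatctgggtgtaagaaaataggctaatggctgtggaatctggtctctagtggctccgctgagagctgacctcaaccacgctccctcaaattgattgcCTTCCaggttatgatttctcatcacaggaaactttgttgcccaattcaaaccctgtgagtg
Kdr (chr5:76139119-76139368, minus strand): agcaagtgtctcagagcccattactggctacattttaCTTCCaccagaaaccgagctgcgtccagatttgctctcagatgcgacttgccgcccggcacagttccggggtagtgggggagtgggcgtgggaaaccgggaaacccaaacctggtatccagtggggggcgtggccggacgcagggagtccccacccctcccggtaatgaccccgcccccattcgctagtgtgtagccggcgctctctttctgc
Pecam1 (chr11:106606458-106606707, minus strand): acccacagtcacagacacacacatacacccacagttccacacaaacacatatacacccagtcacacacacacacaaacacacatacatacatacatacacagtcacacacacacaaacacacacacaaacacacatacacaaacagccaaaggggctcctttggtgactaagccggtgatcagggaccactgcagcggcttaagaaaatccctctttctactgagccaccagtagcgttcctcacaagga
The Tek window held GGAAG or CTTCC at -61 from the start and the Kdr window at -213, and the Pecam1 window held this longer form nowhere. It was present on either strand in 63.8% of 21770 promoters of the same length, so its presence in these windows is a description and no more. The hypoxia response core ACGTG or CACGT, present in 17.0% of promoters, was found in none of these 3 windows. Among the windows of Vegfa, Vegfb, Angpt1, Angpt2, Flt1 and Vwf, it was found only in those of Vegfb and Vwf. In Vwf it lay at -245. In Vegfb both matches, at -192 and -191, were the same palindrome, CACGTG, read on either strand. Sites outside these windows were not searched.

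The 3 tissues differed widely in which vascular ligands they held. Levels between genes are given as TPM (transcripts scaled to gene length and library size), computed here from the counts and the length of each gene's merged exons. Vegfa (chr17:46327919-46343309), the main growth factor for endothelial cells, had a median level over 24 libraries of 231 TPM in eWAT (range 64.2 to 383), 179 TPM in liver (86.3 to 275) and 8.47 TPM in pituitary (6.49 to 12.0). Its order between eWAT and liver depended on the scaling, since the joint fit of all libraries by edgeR put it lower in eWAT (log2 difference -0.70, SE 0.10, adjusted p = 3.08e-09). Vegfb (chr19:6958447-6965127), a related ligand that binds FLT1, stood at 141 TPM in eWAT (43.3 to 192), 9.15 TPM in liver (4.91 to 16.6) and 19.5 TPM in pituitary (15.3 to 25.3). Vegfa thus exceeded Vegfb in every liver, with a ratio of the TPM levels of 9.38 to 37.1, and in every eWAT library, with a ratio of 1.13 to 2.49, whereas in pituitary the median ratio was 0.424.

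Angpt1 (chr15:42288058-42540417) had a median of 13.1 TPM in pituitary (range 8.84 to 18.3), 1.68 TPM in eWAT (1.01 to 5.85) and 0.232 TPM in liver (0.0371 to 0.455). Angpt2 (chr8:18739202-18791603) had its highest level in eWAT, with medians of 10.9 TPM in eWAT (7.50 to 27.2), 2.95 TPM in pituitary (1.36 to 4.53) and 0.577 TPM in liver (0.109 to 1.45). The ratio of Angpt2 to Angpt1, which does not depend on how a library is scaled, was 1.93 to 22.7 in eWAT and 0.103 to 0.335 in pituitary, and these ranges did not overlap. In liver both ligands lay near the detection limit and the ratio spread from 0.375 to 22.5. Exons of Mcph1, on the opposite strand, cover 70.7% of the Angpt2 exons, and exons of Gm17473 cover 11.3% of those of Angpt1. The library kit keeps strand, but the strand setting of the counting is not given in the sources used here, so both levels are uncertain to that extent.

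By TPM the receptors and junction genes were highest in eWAT and lowest, Vwf apart, in liver. For Kdr the joint edgeR fit gave no difference between eWAT and pituitary that passed (log2 0.10, SE 0.106, adjusted p = 0.396). Kdr (chr5:76093487-76139884), which encodes VEGFR2, the main signalling receptor for VEGF-A, had medians of 41.3, 7.00 and 16.3 TPM in eWAT, liver and pituitary. Flt1 (chr5:147498414-147662826), which encodes VEGFR1 and its soluble decoy form, had medians of 15.0, 1.08 and 3.12 TPM in the same order. Tek (chr4:94627291-94763224), the gene for TIE2, had medians of 24.8, 2.48 and 6.11 TPM. Cdh5 (chr8:104828231-104871143), the cadherin of endothelial junctions, stood at 113, 10.4 and 17.1 TPM, and Pecam1 (chr11:106543689-106641454), an adhesion molecule of endothelial cells and platelets, at 49.5, 3.00 and 8.00 TPM. Vwf (chr6:125523737-125663642), whose product tethers platelets and is stored by endothelial cells of larger vessels in particular, had a median of 13.3 TPM in eWAT, 0.845 TPM in liver and 0.401 TPM in pituitary. The order from the highest gene to the lowest differed between tissues. Vegfa led in eWAT and liver, whereas in pituitary Vegfb (15.3 to 25.3 TPM), Cdh5 (9.56 to 22.0), Kdr (10.6 to 24.4) and Angpt1 (8.84 to 18.3) followed each other with overlapping ranges.

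**Figure D1:**
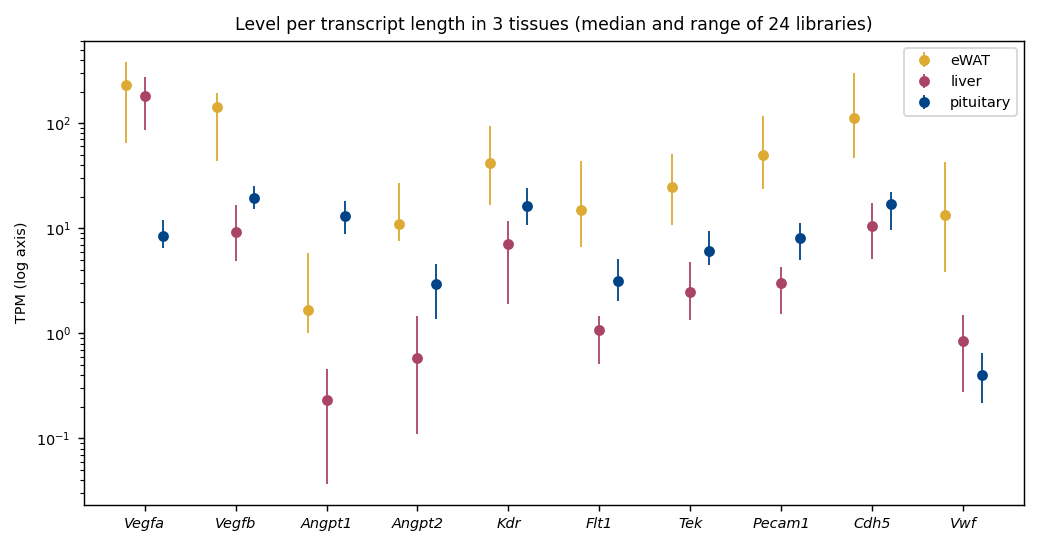
The plot gives the level of each gene in TPM on a log axis, with the median (point) and range (line) of the 24 libraries of each tissue. Vegfa lies at 231 and 179 TPM in eWAT and liver and at 8.47 TPM in pituitary, although the edgeR fit puts it lower in eWAT than in liver (log2 -0.70), and Angpt1 is the only gene of the 10 with its highest median in pituitary.

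A joint edgeR quasi-likelihood fit of all 72 libraries put numbers on these differences. It scales libraries by TMM (trimmed mean of M values), so its differences need not equal the ratios of TPM, which are shares of libraries that differ in their dominant transcripts. Between eWAT and liver 10 of the 10 genes passed an adjusted p of 0.05, as did 83.5% of the 19210 genes tested; between eWAT and pituitary 9 of 10 passed, beside 86.8% of all genes; between pituitary and liver 10 of 10 passed, beside 89.6%. These shares are close to those of all genes, so the sizes are of more interest than the counts. Angpt1 was 64.2-fold higher in pituitary than in liver (log2 difference 6.00, SE 0.154) and Vegfa was lower by a log2 difference of -4.18 (SE 0.114). From pituitary to eWAT, Vegfa was 11.2-fold higher in eWAT (log2 3.48, SE 0.110) and Vwf 15.2-fold higher (log2 3.93, SE 0.175), while Angpt1 was lower (log2 -3.96, SE 0.126). Kdr differed least, by 0.10 on the log2 scale between eWAT and pituitary (SE 0.106, adjusted p = 0.396 by edgeR).

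In eWAT of sons of FED dams, the question was whether the high-fat diet moved the vascular genes. Both VEGF ligands and the receptors were lower in FED-HFD than in FED-CTRL, but edgeR called 0 of the 10 genes at an adjusted p under 0.05, beside 10.5% of the 15964 genes tested in eWAT; 3 of the 10 had an unadjusted p under 0.05, as did 25.7% of all genes, a share close to that of the 10. Of the other tools, DESeq2 called 0 and limma voom with sample quality weights, the test used by the authors, called 2, Vegfa (log2 fold change -0.53, adjusted p = 0.0117) and Vegfb (adjusted p = 0.0149).

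Vegfa in FED-CTRL eWAT ran from 231 to 325 CPM (median 267), and in FED-HFD from 57.3 to 217 CPM (median 196). All 6 FED-HFD mice lay below all 6 FED-CTRL mice, with mouse 23 far below the rest. The edgeR log2 fold change was -0.65 (SE 0.246, 95% interval -1.13 to -0.17, adjusted p = 0.0916), and the exact permutation test of the 6 against 6 mice, two-sided, gave p = 0.00216, the smallest that this design allows. Vegfb showed the same separation. It ran from 101 to 141 CPM in FED-CTRL (median 109) and from 29.3 to 95.3 CPM in FED-HFD (median 87.2). Its log2 fold change was -0.54 (SE 0.206, adjusted p = 0.0965 by edgeR, exact permutation p = 0.00216). How many of all genes separate in this way was not counted, and 25.7% of all genes had an unadjusted p under 0.05 by edgeR.

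Without mouse 23 the Vegfa difference was -0.47 (adjusted p = 0.182) and the Vegfb difference -0.37 (adjusted p = 0.182, both by edgeR). Kdr had a median of 98.7 CPM in FED-CTRL (64.9 to 129) and 72.4 CPM in FED-HFD (31.7 to 84.8), a log2 fold change of -0.55 with an adjusted p of 0.119 by edgeR. The groups overlapped, since 1 FED-CTRL mouse lay below every FED-HFD mouse but mouse 23. Tek differed by -0.45 (adjusted p = 0.195), and the 4 remaining genes other than the angiopoietins by -0.43 to -0.28, with adjusted p of 0.434 to 0.704. Angpt1 (0.11, adjusted p = 0.860) and Angpt2 (0.32, adjusted p = 0.377) were the 2 genes with a value above 0, and the highest Angpt2 level, 27.1 CPM, was that of mouse 23.

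Among the eWAT comparisons, that of the maternal groups on the high-fat diet held the most called genes. Vegfb and Tek were higher in CR20-HFD than in FED-HFD eWAT, by 1.55-fold and 1.57-fold. They were the 2 genes of the 10 called by edgeR, beside 14.9% of all genes tested; DESeq2 also called 2 and limma voom 3. Of the 10 log2 fold changes 9 were above 0, with a median of 0.63 over the 10 and 0.02 over all genes tested. This comparison shares the FED-HFD mice with the preceding one, so the values of the 2 comparisons are not independent.

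Vegfb ran from 103.6 to 133 CPM in CR20-HFD (median 124) and from 29.3 to 95.3 CPM in FED-HFD (median 87.2). No CR20-HFD mouse lay within the range of FED-HFD. The log2 fold change was 0.63 (SE 0.207, 95% interval 0.23 to 1.04, adjusted p = 0.0415 by edgeR; exact permutation p = 0.00216). Tek ran from 34.1 to 53.9 CPM in CR20-HFD (median 42.0) and from 13.4 to 33.7 CPM in FED-HFD (median 28.4). The groups again did not overlap, although the lowest CR20-HFD mouse and the highest FED-HFD mouse were almost level. The log2 fold change was 0.65 (SE 0.218, 95% interval 0.22 to 1.07, adjusted p = 0.0479 by edgeR, exact permutation p = 0.00216). Here too the number of all genes that separate in this way was not counted. By edgeR 29.8% of all genes had an unadjusted p under 0.05.

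Neither call was stable to the loss of single libraries. The Vegfb call was lost in 9 of the 24 fits that left out 1 mouse: FED-HFD mice 12, 13 and 23, CR20-HFD mice 6, 7, 31, 32 and 46, and FED-CTRL mouse 42, with log2 fold changes of 0.46 to 0.66 and adjusted p of 0.05 to 0.0735. The Tek call was lost in 17 of the 24 fits, with log2 fold changes of 0.51 to 0.70 and adjusted p of 0.052 to 0.114: FED-HFD mice 10, 12, 13, 23 and 40, CR20-HFD mice 6, 7, 31, 32, 45 and 46, FED-CTRL mice 15, 16, 41 and 42, and CR20-CTRL mice 4 and 48. Without mouse 23 both values shrank, Vegfb to 0.46 (adjusted p = 0.0595) and Tek to 0.51 (adjusted p = 0.114, both by edgeR).

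The 4 mice numbered under 10 were all sons of CR20 dams, and the labels do not say what the animal numbers follow. Within the ranges of animal number under 20, 20 to 39, and 40 and above, the mean log2 level of Vegfb was higher in CR20-HFD by 0.47, 2.17 and 0.32, and that of Tek by 0.52, 1.57 and 0.58. The middle range holds only mouse 23 on the FED-HFD side, and the upper range only 1 FED-HFD mouse. Without the 4 mice both calls were lost, at 0.62 for Vegfb (adjusted p = 0.0637) and 0.61 for Tek (adjusted p = 0.0917), and without the 3 libraries with epididymis genes Vegfb passed (0.64, adjusted p = 0.0344) and Tek did not (0.56, adjusted p = 0.0836, all by edgeR). Both settings were chosen after seeing the data.

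Vegfa, with 227 to 347 CPM in CR20-HFD (median 265) and 57.3 to 217 CPM in FED-HFD (median 196), did not overlap either. Its log2 fold change was 0.62 (SE 0.246) and missed the threshold in edgeR (adjusted p = 0.0886), while limma voom called it (0.45, adjusted p = 0.0468). The ratio of Vegfa to Vegfb in TPM had a median of 1.65 in both groups. Angpt1 had medians of 3.98 and 2.22 CPM in CR20-HFD and FED-HFD (log2 0.78, SE 0.300, adjusted p = 0.0807 by edgeR). The call was gained without FED-HFD mouse 11 (0.95, adjusted p = 0.0390). Angpt2 was the single gene below 0, at -0.36 (adjusted p = 0.283), and its 6 CR20-HFD mice lay within 10.5 to 12.4 CPM.

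Among the endothelial genes, Pecam1 ran from 100 to 192 CPM in CR20-HFD (median 155) and from 48.8 to 117 CPM in FED-HFD (median 107), with some overlap at the lower end. Its log2 fold change was 0.66 (SE 0.285, adjusted p = 0.123). Cdh5 (0.63, adjusted p = 0.205), Kdr (0.46, adjusted p = 0.176), Vwf (0.44, adjusted p = 0.487) and Flt1 (0.26, adjusted p = 0.597) did not pass edgeR's test either. For Flt1 the 95% interval, -0.34 to 0.86, takes in both no change and a rise of the size seen for Tek.

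**Figure D2:**
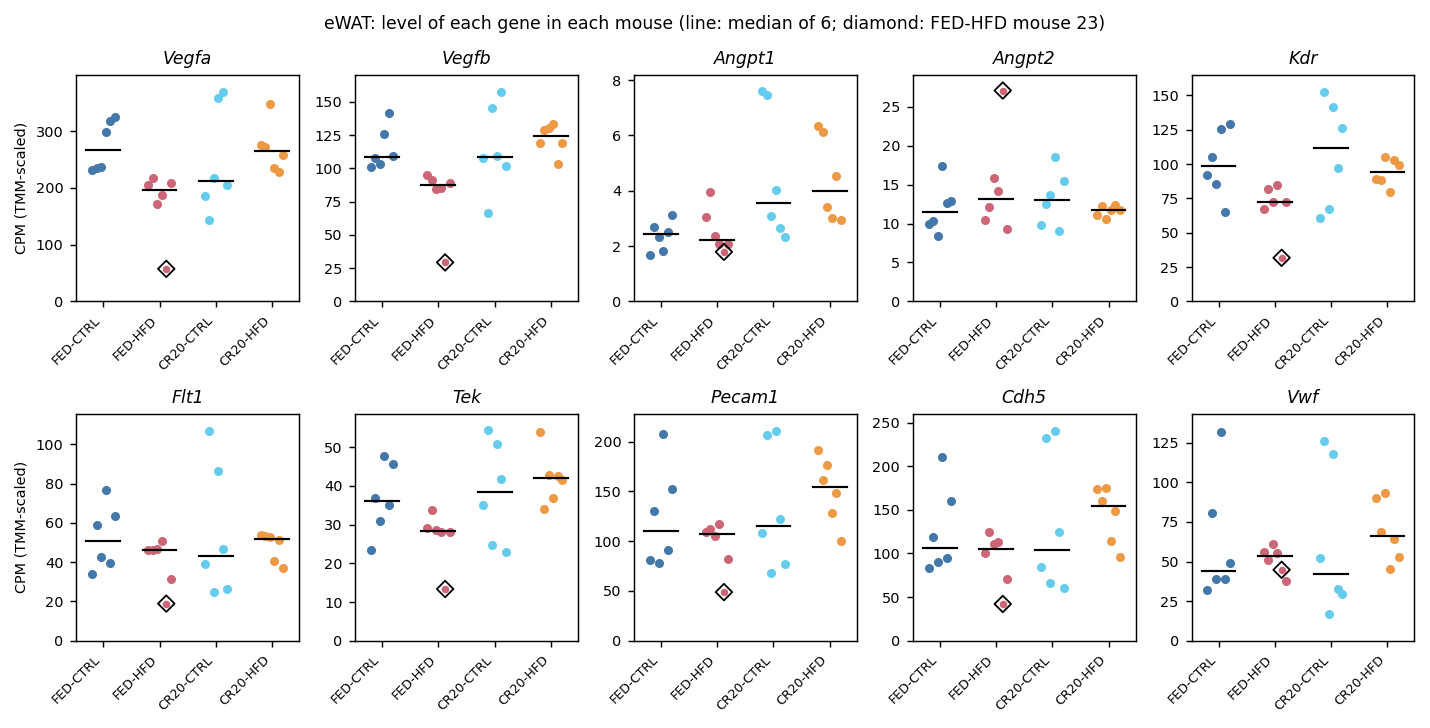
Each panel gives the level of 1 gene in CPM, scaled by TMM, in the 6 mice of each eWAT group, with the line at the median and a diamond around FED-HFD mouse 23. In Vegfb the CR20-HFD mice (103.6 to 133 CPM) all lie above the FED-HFD mice (29.3 to 95.3 CPM), and in Angpt2 mouse 23 is the highest point at 27.1 CPM.

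Other genes of the vessel wall moved in the same comparison. Of 28 further endothelial genes, 8 were higher in CR20-HFD than in FED-HFD and 0 lower, with a median log2 fold change of 0.585 against 0.022 over all genes, of which 14.9% were called in either direction. The 3 with the smallest p were Emcn (0.97, adjusted p = 0.00308), a sialomucin of capillaries and veins, Gpr4 (0.81, adjusted p = 0.0140), a receptor that senses protons, and Esam (0.74, adjusted p = 0.0179), a junction molecule. Without mouse 23 the count was 4, in a fit that called 8.46% of all genes. Without the 3 libraries that held epididymis genes it was 5, and without the mice numbered under 10 it was 2. For these last settings the share of all genes called is not given here. Of 12 pericyte and smooth-muscle genes 5 were higher, led by Cox4i2 (1.12, adjusted p = 0.00250), Higd1b (0.97) and Rgs5 (0.84); the count was 5 without mouse 23 and 4 without the mice numbered under 10. Genes that mark the sinusoidal endothelium of liver went the other way, with 0 of the 5 tested higher and 2 lower, Oit3 (-2.74, adjusted p = 0.00230) and Fcgr2b (-0.44, adjusted p = 0.0257), an Fc receptor that macrophages and B cells also make; without mouse 23 the count was 1.

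Of 15 Notch and tip-cell genes, 3 were higher: Esm1 (1.40, adjusted p = 0.0146), a proteoglycan of sprouting tip cells, Apln (0.79), the ligand of the apelin receptor, and Hes1 (0.79), a Notch target. Gpihbp1, which anchors lipoprotein lipase to capillaries, was 1 of 8 capillary lipid-handling genes to pass (0.86, adjusted p = 0.0220). In the VEGF family outside the 10 genes, 1 of 6 passed: Nrp2, a co-receptor, was lower (-0.89, adjusted p = 0.00924). Vcam1, a leukocyte adhesion molecule of activated endothelium that other cells also make, was lower as well (-0.72, adjusted p = 0.0322), 1 of 5 such genes tested. Of 14 hypoxia-response genes 2 were higher, Ndrg1 (0.86, adjusted p = 0.0109) and Pdk1 (0.41, adjusted p = 0.0378), a share of the list close to the 14.9% of all genes called. Of the 4 partners of the angiopoietin axis and of 9 angiogenesis inhibitors tested, 0 passed. Ccl21a, of a list of 6 lymphatic endothelial genes, was higher (7.97, SE 2.26, adjusted p = 0.02 by edgeR). Up to 3 genes of that list were at 0 in a library of either group.

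Lower values in FED-HFD than in FED-CTRL were seen for some of these genes too, in a comparison that again shares the FED-HFD mice. Esm1 fell by 1.70 on the log2 scale (adjusted p = 0.00602), Hes1 by 0.79 (adjusted p = 0.0259) and Jag1, a Notch ligand, by 0.59 (adjusted p = 0.0357). Pdk1, Ndrg1 and Egln3 of the hypoxia list fell by 0.60, 0.70 and 0.85. Of the 28 endothelial genes 0 were called and 26 lay below 0, with a smallest adjusted p of 0.0609. Their median log2 fold change was -0.337, against -0.002 over all genes. Lrg1, a secreted glycoprotein that promotes angiogenesis, rose by 1.36 (adjusted p = 0.00314) and Vcam1 by 0.71 (adjusted p = 0.0441), and Nrp2 rose by 0.83 (adjusted p = 0.0184). Of the 5 sinusoidal genes tested 1 rose, Oit3 by 2.20 (adjusted p = 0.0101), and of the 12 pericyte and smooth-muscle genes 2 fell, Rgs5 by 0.65 (adjusted p = 0.0442) and Cox4i2 by 0.72 (adjusted p = 0.0472). Of all genes edgeR called 10.5% in this comparison. Without mouse 23 none of the genes of these last 2 lists was called, beside 5.44% of all genes.

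Markers of other cell types moved with these groups. The summed level of 12 macrophage genes was 2420 to 10600 CPM in FED-HFD and 1420 to 2340 CPM in CR20-HFD, with no overlap, and 8 of the 12 were lower in CR20-HFD by edgeR. That of 8 adipocyte genes was 5570 to 20900 CPM in FED-HFD and 22400 to 25400 CPM in CR20-HFD, again with no overlap. Of these 8 genes 2 passed, both higher in CR20-HFD. Over all genes 14.9% were called in this comparison. In FED-CTRL the macrophage sum was 1670 to 2390 CPM, below every FED-HFD mouse, and 7 of the 12 genes were higher in FED-HFD than in FED-CTRL, among them Cd68 (2.11, adjusted p = 0.00297) and Adgre1 (1.79, adjusted p = 0.00297). The adipocyte sum in FED-CTRL, 19600 to 25100 CPM, overlapped that of FED-HFD, and 0 of the 8 genes were called. Over all genes 10.5% were called between FED-HFD and FED-CTRL. No gene of either list was at 0 in any eWAT library. Of the 4 hepatocyte genes tested in eWAT, Apoa1 (6.49, adjusted p = 0.0194) and Ttr (6.19, adjusted p = 0.0240) were higher in FED-HFD than in FED-CTRL, with a sum of the 6 listed genes of 3.54 to 814 CPM in FED-HFD and 61.2 to 259 CPM in FED-CTRL. In CR20-HFD against FED-HFD Apoa1 (-5.60) and Ttr (-4.97) were lower and Cyp2e1 (3.28), which adipose tissue also expresses, was higher, with a sum of 88.5 to 982 CPM in CR20-HFD. The part of these shifts in the differences of the vascular genes was not tested.

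**Figure D3:**
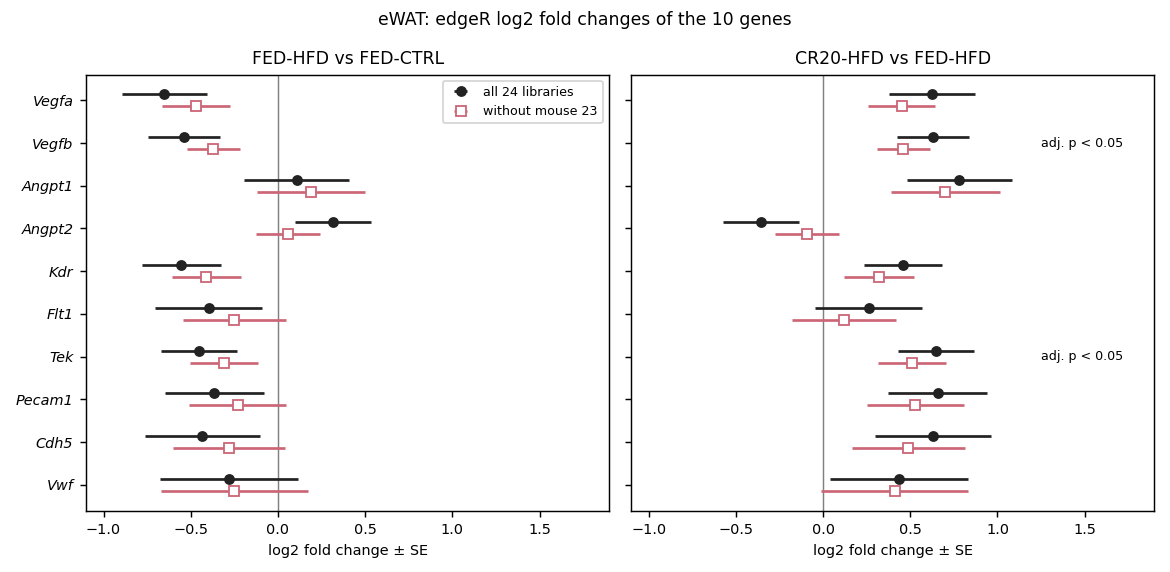
The plot gives the edgeR log2 fold change with its standard error for the 10 genes in eWAT, with all 24 libraries (filled) and without FED-HFD mouse 23 (open). Without that mouse Vegfb in CR20-HFD against FED-HFD moves from 0.63 to 0.46 and Tek from 0.65 to 0.51, and both lose their call.

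Whether the diet effect differed between the 2 maternal groups was asked with the interaction, the HFD effect in sons of CR20 dams minus that in sons of FED dams. By edgeR 0 of the 10 genes were called, beside 2.29% of all genes, and 2 had an unadjusted p under 0.05, beside 18.2% of all genes; limma voom and DESeq2 called 0. The estimates for Vegfa (0.78, SE 0.346, adjusted p = 0.241) and Vegfb (0.63, SE 0.291, adjusted p = 0.255) were the largest in size. In sons of CR20 dams alone the diet gave log2 fold changes of -0.20 to 0.19, with 0 of the 10 called, 0 at an unadjusted p under 0.05 (6.03% of all genes) and 0% of all genes called by edgeR. Averaged over maternal groups the diet gave 0 calls among the 10, beside 0.251% of all genes, with Kdr (-0.37, adjusted p = 0.229) the single gene at an unadjusted p under 0.05, beside 17.1% of all genes. In each of these comparisons limma voom and DESeq2 called 0 of the 10.

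Angpt1 was the gene of the 10 that differed between maternal groups when the diets were averaged. In eWAT it ran from 1.69 to 3.11 CPM in FED-CTRL (median 2.43), from 1.79 to 3.97 in FED-HFD (median 2.22), from 2.34 to 7.59 in CR20-CTRL (median 3.55) and from 2.96 to 6.32 in CR20-HFD (median 3.98). The groups overlapped, and the highest levels in both CR20 groups came from few mice. Its averaged log2 fold change was 0.86 (SE 0.212, 1.81-fold, adjusted p = 0.0219 by edgeR), and it was the 1 gene called, beside 6.68% of all genes; limma voom and DESeq2 each called 1 as well. It stayed called when any 1 mouse was left out, at adjusted p of 0.0126 to 0.0454.

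The 4 mice numbered under 10, CR20-CTRL mice 4 and 5 and CR20-HFD mice 6 and 7, had 6.11 to 7.59 CPM of Angpt1, and the other 20 mice 1.69 to 4.54 CPM. Without the 4 the averaged difference was 0.40 (adjusted p = 0.158 by edgeR), and without the 3 libraries that held epididymis genes, all of them among those 4, it was 0.50 (adjusted p = 0.0881). The fourth, CR20-HFD mouse 7, had 6.11 CPM of Angpt1 with all 8 epididymis genes at 0. The summed level of 6 lymphatic endothelial genes in these 4 mice was 43.3 to 115 CPM, and 18.0 to 62.8 CPM in the other 20, and its part in the Angpt1 level was not tested. The mean log2 level of Angpt1 in CR20-CTRL minus FED-CTRL was 1.73 among mice numbered under 20, 0.73 among those from 20 to 39 and 0.06 among those from 40. For CR20-HFD minus FED-HFD the values were 1.14, 0.80 and 0.79. For these 4 mice the maternal group and the animal number cannot be told apart.

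On the control diet alone edgeR called 0 of the 10 genes between CR20-CTRL and FED-CTRL, as well as 0% of all genes, and 1 had an unadjusted p under 0.05, beside 7.39% of all genes, Angpt1 (0.93, SE 0.299, adjusted p = 0.318; exact permutation p = 0.0411). DESeq2 and limma voom called 0 of the 10. The other 9 lay between -0.15 and 0.14. In the averaged comparison, in which edgeR called 6.68% of all genes, some further genes of the vessel wall passed. Among them were Emcn (0.63, adjusted p = 0.0175) and Tmem204 (0.33) of the 28 endothelial genes, a share close to that of all genes, and 4 of the 12 pericyte and smooth-muscle genes. Hes1 (0.59) and Apln (0.50) of the Notch and tip-cell list and Ndrg1 (0.59) of the hypoxia list were higher too. Of the lymphatic endothelial genes Ccl21a was higher (6.68, SE 1.43, adjusted p = 0.0152 by edgeR). In the VEGF family Pgf, placental growth factor, a ligand of FLT1, was higher (1.55, adjusted p = 0.0167). Oit3 of the sinusoidal list was lower (-1.37, adjusted p = 0.0387). The limit set by the mice numbered under 10 holds for these genes too, and their values without those mice are not given here.

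**Figure D4:**
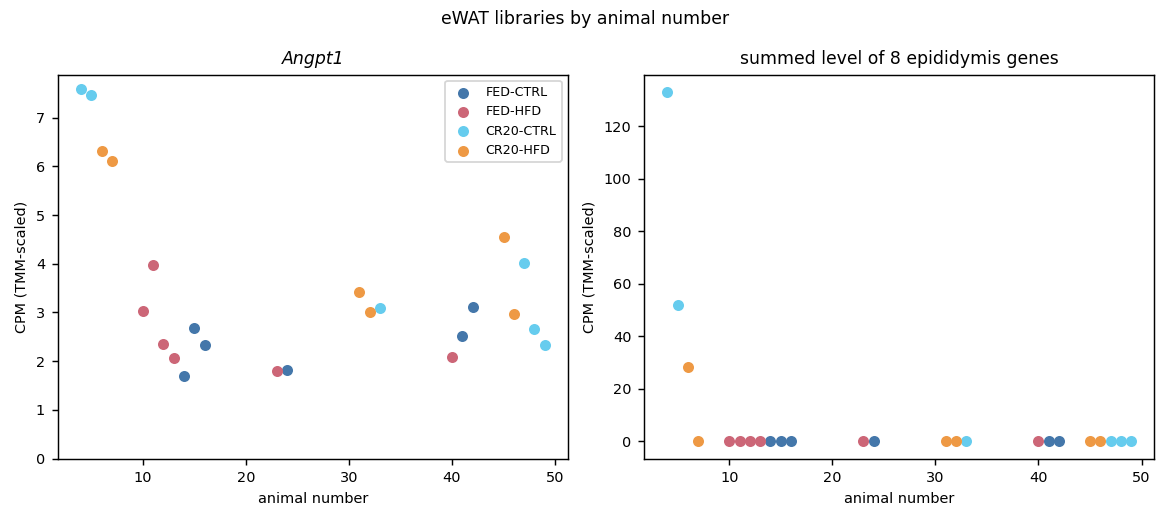
The left plot gives Angpt1 in CPM and the right plot the summed CPM of 8 epididymis genes in each eWAT library against the animal number. The mice numbered under 10, all sons of CR20 dams, hold the 4 highest Angpt1 levels (6.11 to 7.59 CPM), and 3 of them the only epididymis sums above 1 CPM.

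In liver, 9 of the 10 genes passed the filter on low counts. Angpt1 did not, with 0.0762 to 0.959 CPM, and it is given no fold change there. Averaged over maternal groups, 9 of 9 log2 differences between HFD and CTRL were below 0, with a median of -0.20, but edgeR called 0 of them, beside 1.74% of the 13787 genes tested; 3 had an unadjusted p under 0.05, beside 13.2% of all genes, and limma voom and DESeq2 each called 1.

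Tek ran from 4.19 to 6.98 CPM in FED-CTRL livers (median 5.77), 2.25 to 4.86 in FED-HFD (median 3.58), 2.69 to 7.28 in CR20-CTRL (median 5.18) and 2.92 to 4.79 in CR20-HFD (median 3.80). Both HFD medians were below both CTRL medians, with overlap in each maternal group. Its averaged log2 difference was -0.51 (SE 0.153, 95% interval -0.81 to -0.21, adjusted p = 0.0970 by edgeR), and DESeq2 called it (adjusted p = 0.0424). Vegfb had medians of 10.7, 7.66, 10.1 and 8.03 CPM in the same order of groups and differed by -0.44 (SE 0.156, adjusted p = 0.174 by edgeR), and limma voom called it (-0.52, adjusted p = 0.0175). Kdr had medians of 23.5, 16.4, 21.0 and 19.0 CPM and differed by -0.46 (SE 0.190, adjusted p = 0.283 by edgeR). Without FED-HFD mouse 40 the Kdr difference was -0.36. With the range of animal numbers as a covariate Kdr was called (-0.58, adjusted p = 0.0417 by edgeR). Each setting thus called 1 gene, and each a different one. Without CR20-CTRL mouse 47 Tek passed the threshold (-0.57, adjusted p = 0.0420 by edgeR).

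Vegfa in liver had an averaged diet difference of -0.03 (adjusted p = 0.962 by edgeR). It ran from 177 to 225 CPM in FED-HFD (median 199) and from 209 to 309 in CR20-HFD (median 257), a log2 difference of 0.36 with an adjusted p of 1.00 by edgeR (exact permutation p = 0.0216). The groups overlapped. CR20-CTRL mice 4 and 5 had 124 and 128 CPM, against a group median of 290 CPM.

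Within sons of FED dams the diet gave 0 calls among the 9 genes in liver, beside 0.109% of all genes, and 2 at an unadjusted p under 0.05 (6.66% of all genes), Tek (-0.63, adjusted p = 0.471) and Kdr (-0.60, adjusted p = 0.700). Without mouse 40, whose liver had 4.87 CPM of Kdr against 15.8 to 18.9 CPM in its group, the Kdr difference was -0.42. Within sons of CR20 dams there were 0 calls, beside 0.515% of all genes, and 1 at an unadjusted p under 0.05 (9.57% of all genes), Vegfb (-0.55, adjusted p = 0.436). Between maternal groups there were 0 calls on the control diet, on the high-fat diet, averaged over diets and in the interaction, beside 0% of all genes in each by edgeR, and 0 at an unadjusted p under 0.05 in each of the 4, beside 1.76% to 4% of all genes. In these 6 comparisons limma voom and DESeq2 called 0 of the 9. In the averaged diet comparison 1 gene of the VEGF family, the co-receptor Nrp1, was higher (0.43, adjusted p = 0.0349) and 1 of 14 hypoxia genes, Hif1a, was lower (-0.43, adjusted p = 0.0258). Fabp5, a fatty acid binding protein of capillary endothelium that hepatocytes also make, fell by 1.94 on the log2 scale (adjusted p = 1.39e-05). Of 27 endothelial, 9 mural and 8 sinusoidal genes tested 0 were called.

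In the pituitary edgeR called 0 of the 10 genes in each of its 7 comparisons. Averaged over maternal groups, edgeR called 0.024% of the 16657 genes tested for the diet, and in the other 6 comparisons 0% of genes were called. For CR20-CTRL against FED-CTRL limma voom called 284 genes (1.70%) and DESeq2 350 (2.10%). Limma voom and DESeq2 also called 0 of the 10 in each. At an unadjusted p under 0.05 there were 2 of the 10 for the diet in sons of FED dams, 0 for the diet in sons of CR20 dams, 3 for the maternal groups on each of the diets, 2 in the interaction, 1 for the diet averaged and 4 for the maternal groups averaged. In the same order of comparisons the shares of all genes were 9.64%, 7.28%, 17.3% on the control diet and 6.77% on the high-fat diet, 11.0%, 6.23% and 13.2%.

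Those 4 were Angpt2 (0.46, SE 0.124, adjusted p = 0.210), Pecam1 (0.20, SE 0.0648, adjusted p = 0.241), Cdh5 (0.20, SE 0.0680, adjusted p = 0.247) and Tek (0.16, SE 0.0795, adjusted p = 0.377), all higher in sons of CR20 dams. Angpt2 ran from 4.22 to 8.34 CPM in FED-CTRL (median 6.25), 3.67 to 6.93 in FED-HFD (median 5.16), 4.45 to 10.6 in CR20-CTRL (median 9.20) and 6.37 to 8.46 in CR20-HFD (median 8.20). Both CR20 medians exceeded both FED medians, and the ranges overlapped. On the high-fat diet alone the Angpt2 difference was 0.52 (adjusted p = 0.530 by edgeR; exact permutation p = 0.00649), and Vwf, with medians of 2.82 CPM in CR20-HFD and 4.42 CPM in FED-HFD, differed by -0.59 (adjusted p = 0.583). The 95% intervals of the averaged Vegfa (-0.20 to 0.06) and Vegfb (-0.10 to 0.12) differences took in 0. None of the genes of the further vascular lists passed in the pituitary.

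From mouse to mouse the endothelial genes moved together in eWAT and liver, and less so in pituitary. There the Pearson r of Vwf with the others of the set below was -0.22 to 0.12, and that of Kdr with Tek was 0.28 (permutation adjusted p = 0.381). After each group's mean was taken off, the 15 pairs among Pecam1, Cdh5, Kdr, Flt1, Tek and Vwf had a median Pearson r over 24 mice of 0.85 in eWAT (0.52 to 0.97), 0.69 in liver (0.49 to 0.79) and 0.48 in pituitary (-0.22 to 0.80). Of the 15 pairs, 14, 13 and 6 had an adjusted p under 0.05 by permutation of mice within groups, with p adjusted over all 135 relations computed. The closest pair in eWAT, Pecam1 and Cdh5, had r = 0.97 and Spearman's rho = 0.96 (100000 permutations, p = 1e-05, the smallest they can give, for both), and r = 0.97 without the 2 mice farthest from the median. Within the mice numbered under 20 it was 0.94, and within those from 40 it was 0.98. Some pairs with Kdr held less well within these ranges. Kdr and Tek in eWAT had r = 0.16 within the mice from 40. In liver Kdr had r = -0.19 with Pecam1 and with Cdh5 within those under 20. All these genes come from the same libraries, so any technical spread in the share of vessel RNA is common to them.

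In eWAT Vegfa and Vegfb were related to each other, with r = 0.87 (permutation adjusted p = 0.0111) and rho = 0.74 (permutation adjusted p = 0.00917). The r was 0.62 without the 2 mice farthest from the median of Vegfa, 0.73 without mouse 23, 0.94 within the mice numbered under 20 and 0.71 within those from 40. Angpt2 had an r near 0 with Pecam1 (0.02) and Cdh5 (0.03) in eWAT, and 0.33 with each without mouse 23. As a description, the mean of Pecam1, Cdh5, Kdr and Tek ran with Vegfa at r = 0.529 (0.302 without mouse 23) and with Vegfb at r = 0.238 (-0.207 without it) in eWAT.

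The genes outside the 10 whose level ran closest to that mean, over the 24 libraries of a tissue, were Mmrn2 (r = 0.975), Ptprb (0.975), Adgrf5 (0.970), She (0.967) and Dock9 (0.957) in eWAT. In liver they were Ptprb (0.936), Oit3 (0.900), Ets1 (0.878), Eng (0.874) and Fcgr2b (0.871), and in pituitary Nid1 (0.889), Cd93 (0.861), Lamc1 (0.856), Trp53bp2 (0.830) and Tor1aip1 (0.824). Ptprb encodes the phosphatase of TIE2, and Oit3 and Fcgr2b are markers of liver sinusoidal endothelium.

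**Figure D5:**
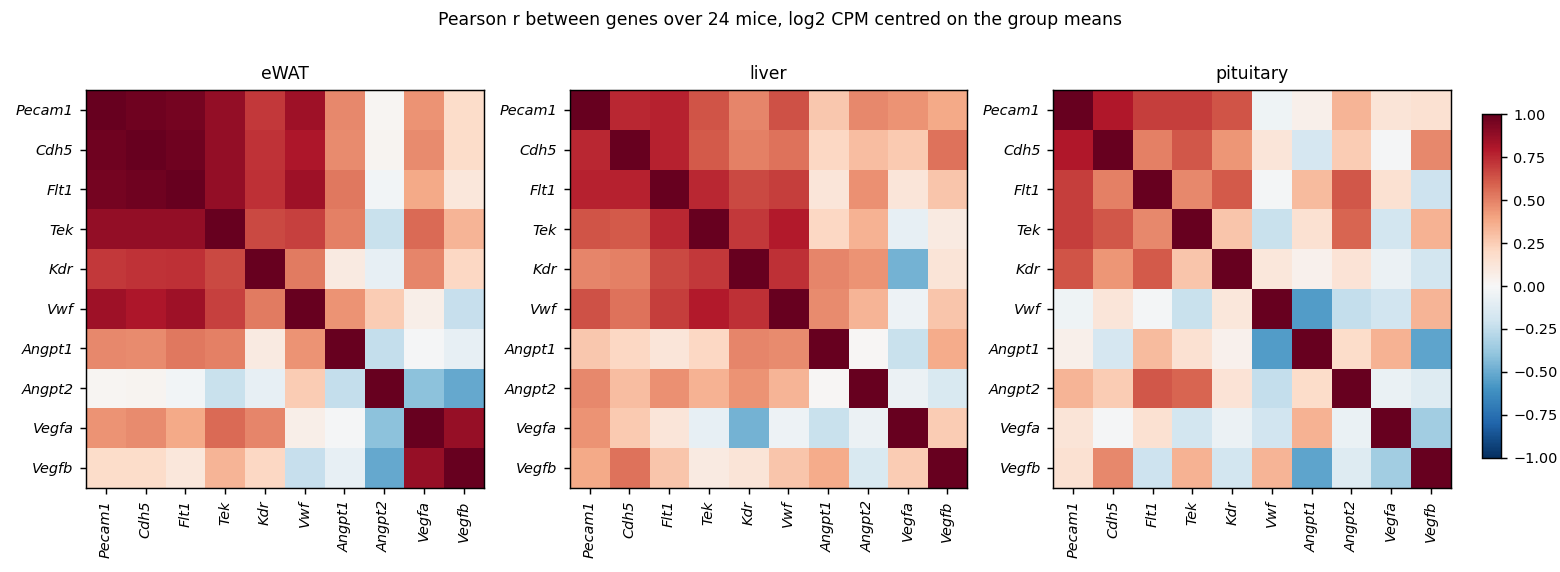
The maps give Pearson's r between each pair of the 10 genes over 24 mice, on log2 CPM with each group's mean taken off, in eWAT, liver and pituitary. The block of Pecam1, Cdh5, Flt1, Tek, Kdr and Vwf has a median r of 0.85 in eWAT, 0.69 in liver and 0.48 in pituitary.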

How the data were processed

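RNA from eWAT, liver and pituitary of 24 male mice was sequenced by the authors, who trimmed reads with Trimmomatic, aligned them to GRCm39 with STAR and counted them per Ensembl gene with Subread; tool versions and the strand setting are not given in the sources used here. The deposited values are raw read counts per gene, and all 72 columns were matched to samples by title (0 unmatched). The 10 genes and the lists of further genes were chosen with earlier results of these data known. Symbols were assigned from the Ensembl annotation of GRCm39, in which 54749 of 55416 genes matched.

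Each tissue was fitted in R 4.3.3 with edgeR 4.0.16 (quasi-likelihood test on the counts, TMM scaling, filterByExpr, a mean for each of 4 groups, 24 libraries); a gene was called at a Benjamini-Hochberg adjusted p under 0.05 over all genes tested. SE is the log2 fold change over the square root of F, and 95% intervals are 1.96 SE. Levels are CPM scaled by TMM; log2 levels use a prior count of 2. Single genes were also tested with the two-sided exact permutation test over all splits of 6 against 6 mice. Tissues were compared in 1 fit of 72 libraries. The scripts were tested on simulated data. Alternatives were limma 3.58.1 (voom with sample quality weights, the study's test), DESeq2 1.42.0, DESeq2 size factors, other filters, only the groups compared, ranges of animal number as a covariate, the study's thresholds (adjusted p under 0.055 and a log2 fold change of at least 0.58), and each mouse left out. The same mouse gave all 3 tissues; deviations of a mouse from its group means correlated weakly between tissues (median r 0.028 to 0.036 over 24 mice), and the mouse was a replicate block in an alternative fit. Precision rests on 9842813 to 27601208 counts per library. Named genes are the 10, at most 3 genes past the threshold per list and comparison by smallest p, and the 5 genes closest to the mean of Pecam1, Cdh5, Kdr and Tek in each tissue. P-values treat mice as independent. The start region of 1 gene is not reported here.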

Additional observations from a re-analysis of the deposited data

Results flagged for a closer look

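Of 120 sets of 6 mice (10 genes, 4 groups, 3 tissues), 8 had 1 mouse set far from the other 5. The measure was the gap to the nearest mouse as a share of the whole range of the group, on log2 levels. In these 8 sets it was above Dixon's 95% critical value for 6 samples, and chance alone marks about 1 set in 20. Levels are given in CPM below, so the shares, taken on the log2 scale, differ from shares of the CPM shown. In eWAT all 4 such values were the lowest level in FED-HFD mouse 23: Kdr at 31.7 CPM against 67.2 to 84.8 in the others (gap 0.763 of the range), Vegfa at 57.3 against 172 to 217 CPM (0.824), Vegfb at 29.3 against 84.7 to 95.3 CPM (0.900) and Tek at 13.4 against 27.99 to 33.7 CPM (0.800). The same library had the highest macrophage sum and the lowest adipocyte sum of the eWAT libraries, and their part in these levels was not tested.

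In liver, Kdr of FED-HFD mouse 40 was 4.87 CPM against 15.8 to 18.9 CPM (0.868), and Vegfb of FED-CTRL mouse 41 was 4.57 CPM against 9.43 to 12.7 CPM (0.706). In pituitary, Flt1 of FED-CTRL mouse 42 was 30.6 CPM against 19.7 to 23.2 CPM (0.631), and Angpt1 of FED-HFD mouse 10 was 38.2 CPM against 48.3 to 55.3 CPM (0.632).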

How the results depend on the processing

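Values for single genes under the alternatives were tallied for all 10 genes between tissues. Within a tissue they were tallied only for genes at an unadjusted p under 0.05 in the main edgeR fit. Of these values, 1205 kept their direction and side of the threshold, 9 newly passed it, 35 no longer passed it and 1 changed sign. That was Kdr between eWAT and pituitary, at -0.006 with DESeq2 size factors, which shift the median of all genes there from 0.04 to -0.05. Genes outside the tally could change sign too. Vegfa in liver, for the diet averaged over maternal groups, went from -0.03 to 0.06 with the number range as a covariate. Of the counts of the 10 genes called, 661 stayed within 1.5 times and 28 did not. In eWAT, CR20-HFD against FED-HFD (2 called) gave 0 with no filter on low counts, 1 with only the groups compared, 1 without the libraries with epididymis genes, 0 without the mice numbered under 10, and 0 to 3 with 1 mouse left out. FED-HFD against FED-CTRL in eWAT (0 called) gave 2 with limma voom. CR20 against FED averaged over diets in eWAT (1 called) gave 0 without the libraries with epididymis genes and 0 without the mice numbered under 10. In liver, HFD against CTRL averaged over maternal groups (0 called) gave 1 with limma voom, 1 with DESeq2, 1 with the number range as a covariate, and 0 to 1 with 1 mouse left out; without CR20-CTRL mouse 47 Tek was called (-0.57, adjusted p = 0.042 by edgeR). With the mouse as a replicate block the tissue comparisons called 10 (eWAT and liver), 9 (eWAT and pituitary) and 10 (pituitary and liver), as without it, and no other call changed; within a tissue each mouse gives 1 library, so no paired analysis was possible because the groups compared share no mouse. Over all genes, limma voom and DESeq2 in turn called more than edgeR in eWAT for CR20 against FED averaged over diets (2183 and 1805 against 1066) and HFD against CTRL averaged over maternal groups (1104 and 548 against 40), and in liver for the averaged diet comparison (895 and 461 against 240), the diet in sons of FED dams (58 and 54 against 15) and in sons of CR20 dams (145 and 170 against 71). The eWAT interaction gave 144 and 824 against 365, and limma voom called 3291 against 1680 for FED-HFD against FED-CTRL in eWAT. DESeq2 called 143 against 0 for CR20-CTRL against FED-CTRL in eWAT. In pituitary that comparison gave 284 with limma voom and 350 with DESeq2 against 0, and DESeq2 called 31 and limma voom 1 against 4 for the averaged diet. There DESeq2 also called 29 against 0 for the averaged maternal groups and 19 against 0 for the diet in sons of FED dams. Without mouse 23 edgeR called 878 against 1680 for FED-HFD against FED-CTRL and 1365 against 2385 for CR20-HFD against FED-HFD. Depth limits Angpt1 and Angpt2 in liver, whose levels lie within a few times the 3-count floor. The causes of these changes were not tested.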
